A study of Mus musculus with 14 samples.

Results

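Jejunal RNA of 7 mice with wild-type LRH-1 was measured on 7 Affymetrix whole-transcript arrays, 1 array per mouse. These are the 7 arrays, of 14 in the series, whose titles name the LRH-1 WT genotype. They are described here as a baseline: which genes gave high and low signal in the jejunum, and how far the signal of each gene differed from mouse to mouse. The mice were 19 to 21 weeks old, were fed without restriction and were killed at 7 am, and their jejunums were snap-frozen. The other 7 mice of the series carried LRH-1 K289R in place of wild-type LRH-1, and no level is compared between the genotypes. According to the labels the samples are biological replicates, and no label gives a strain, sex, litter, cage of origin, further allele or agent or says which stretch of the jejunum was taken. The series title has the word hepatic, whereas each sample is labelled as jejunum.

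The jejunum is the stretch of small intestine in which most sugar, peptide and fat is absorbed. Its villi are covered by enterocytes, whose brush border carries digestive enzymes and transporters and whose interior packs absorbed fat into chylomicrons. The crypts between the villi hold stem cells and Paneth cells, which secrete lysozyme and defensins, and goblet cells in both add the mucus layer. Lymphocytes lie within and beneath the epithelium, plasma cells supply antibody, and a muscle coat with its own nerve network surrounds the tube. The nuclear receptor LRH-1, the product of Nr5a2, acts in the crypts, liver and pancreas.

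All levels are given as log2 of the deposited intensity, so that a difference of 1 is a doubling of intensity, and all spreads as the SD of these log2 values over the 7 mice. A gene was read from its brightest probe set with a single gene symbol, which gave 22180 genes. Brightness also depends on the probes, so the ranks below are ranks of signal and not of transcript number. Median intensity was between 168 and 174 on the 7 arrays. Any pair of them correlated across all 41345 probe sets with r between 0.985 and 0.993, where probe sets are not independent replicates. Replicates 1 and 2 stood apart most: replicate 1 held 21.4% and replicate 2 18.2% of the summed squared deviations of all genes above the filter for dim signal, against 9.03% to 15.8% for the other 5. Replicate 1, and to a lesser degree replicate 6, also gave signal for genes of the distal small intestine, described below. The number of genes with an SD above 0.5 is given with and without these arrays, and some list counts with and without replicate 1. The Y-linked genes Uty, Kdm5d and Eif2s3y had means of 9.33 to 9.65 and gave signal on all 7 arrays, and Xist was near background at 6.39, so the 7 mice did not differ in sex by these genes. With 7 arrays the precision of a single SD is limited: its 95% chi-square interval runs from 0.644 to 2.2 times the estimate. This interval assumes normally distributed values and takes no account of a gene being picked for its large or small SD.

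Genes of sensory receptor and keratin-associated protein families, which are not known for a role in the jejunum, served as a reference for background. The 1445 such genes had a median of 5.08, and 95% of them lay at or below 7.42. Of all genes, 12787 (57.7%) had a mean above that level. The reference is not free of signal, since its brightest member, the pheromone receptor gene Vmn1r233, singled out after its value was seen, reached 11.53. Spread was summarised over the 18022 genes with a mean of at least 6.24, the 25th percentile of all probe sets, and 4158 genes lay below it.

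The brightest signals came from secretory, absorptive and mitochondrial genes. Lyz1, the lysozyme of Paneth cells, ranked first at 14.04 ± 0.057 (SD, n = 7). Among the 25 brightest genes were 5 alpha-defensin genes, led by Defa22 at 13.95 ± 0.29, and 7 genes of the mitochondrial genome, led by ND4, a subunit of complex I, at 13.94 ± 0.037. The alpha-defensin genes are near copies of each other, so the signal of any of them may include that of others. Apoa4, an apolipoprotein of chylomicrons, stood at 13.94 ± 0.15, Muc2, the main gel-forming mucin of goblet cells, at 13.84 ± 0.038, and Anpep, the brush-border aminopeptidase N, at 13.78 ± 0.061. Also among these 25 were Guca2b, which encodes the peptide uroguanylin, the mucin gene Muc13, the goblet cell gene Zg16, B2m, the light chain of MHC class I, and the small nuclear RNA gene Rn7sk. The values at the top of the scale lay close together, with 13.57 for the gene in 25th place, and whether these probes were near saturation was not tested. The top 1% of genes, 222 in all, began at 12.47.

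**Figure D1:**
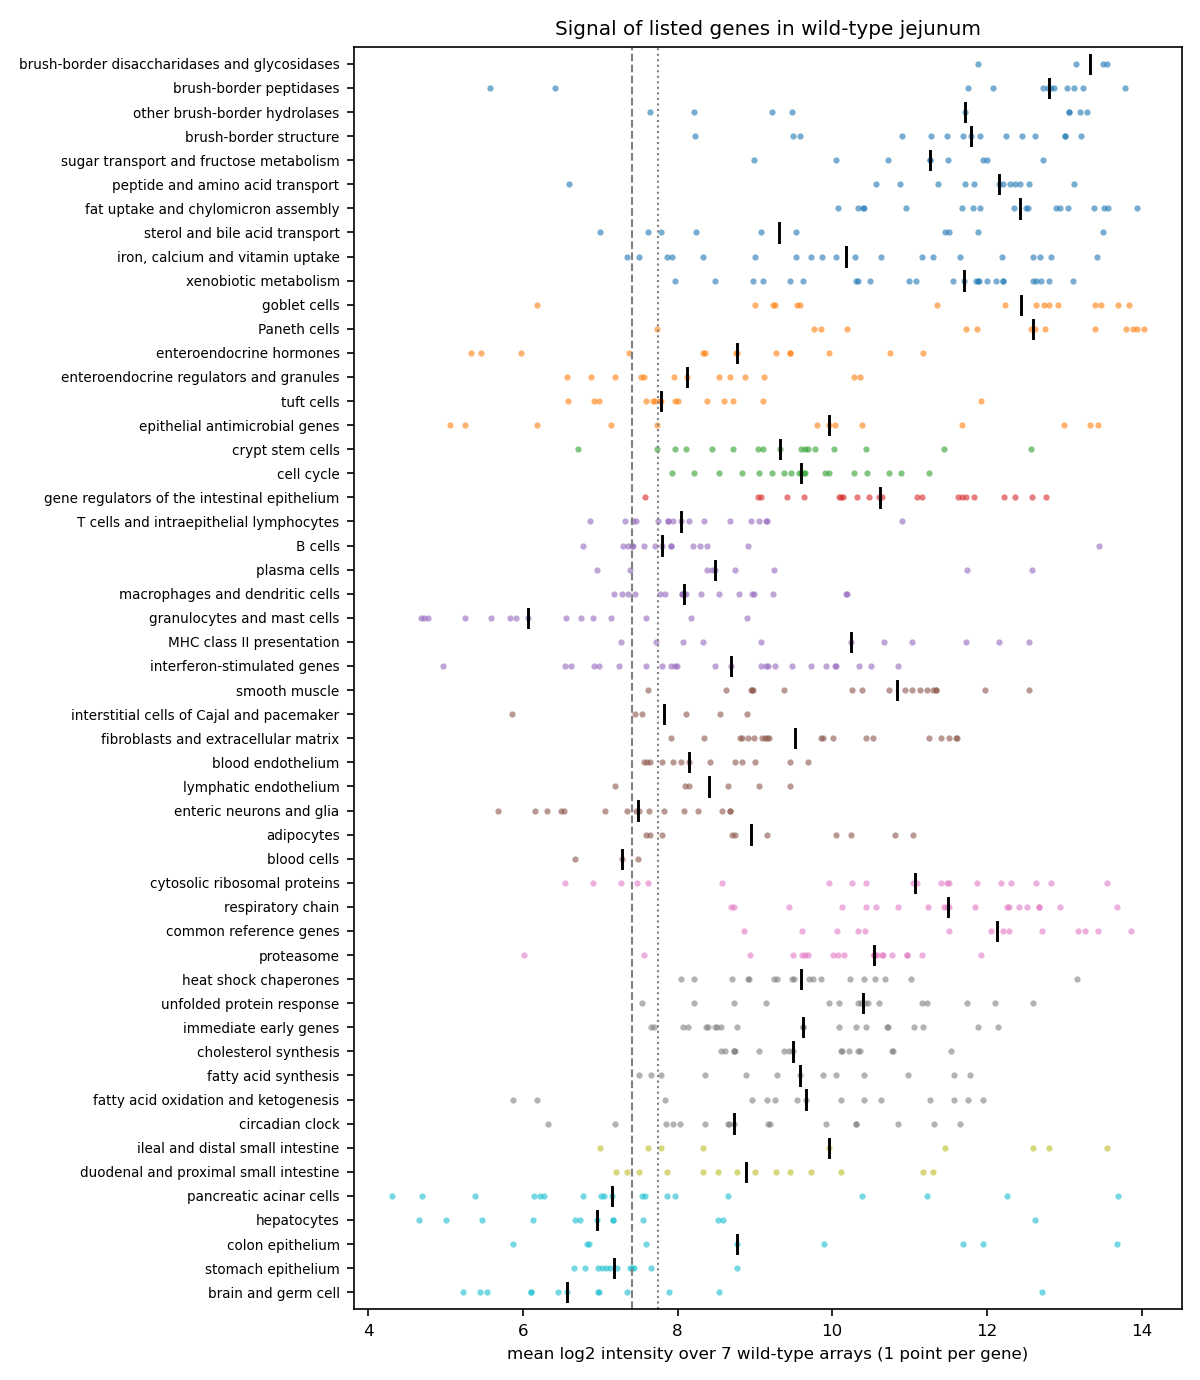
Mean log2 intensity over the 7 wild-type arrays (x axis) for the measured members of 52 gene lists (y axis), 1 point per gene, coloured by class, with a black bar at each list's median; the dashed line marks the 95th percentile of sensory receptor and keratin-associated genes (7.42) and the dotted line the median of all 22180 genes (7.74). Most absorptive lists have medians above 11, whereas the T cell, B cell, tuft cell and enteric neuron lists have medians near the dotted line.

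Absorptive and digestive genes filled the upper end of the ranking. Of 135 measured genes of these lists, 96 lay in the top 10% of signal, where 10% of all genes lie by construction, and 41 in the top 1%. Of 4 measured brush-border glycosidase genes 3 lay in the top 1%. Their SDs ran from 0.038 to 0.34, and 2 were below 0.1, as were 41.0% of all genes above the filter. Sis, sucrase-isomaltase, ran from 13.49 to 13.66 around a median of 13.54, and Mgam, maltase-glucoamylase, from 13.46 to 13.57 around 13.50. The arrays lay close together for both enzymes, with SDs of 0.054 and 0.038. Lct, lactase, was looser, running from 12.45 through a median of 13.20 to 13.42. Its lowest value was that of replicate 1, and without that array its SD was 0.14 in place of 0.34. Treh, trehalase, was the dimmest of them at 11.89 ± 0.28. Alpi, the intestinal alkaline phosphatase, stood at 13.29 ± 0.039, and Enpp7, which splits sphingomyelin, at 13.06 ± 0.062. Of 12 measured brush-border peptidase genes 8 lay in the top 1%, among them Anpep, Ace, the angiotensin-converting enzyme, and Naaladl1. Mep1a, a subunit of the peptidase meprin, was the member with an SD above 0.5: it ran from 10.74 through 11.65 to 12.65, lowest on replicates 3 and 4 and highest on 1 and 6. Its partner subunit Mep1b did not share that spread (12.72 ± 0.055).

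The structural genes of the brush border varied little. 12 of 15 had an SD below 0.1, as against 41.0% of all genes above the filter. That 41.0% includes dim genes, whereas 12 of these 15 genes lay in the top 10% of signal. In the top 10% the median SD of all genes was 0.0893, against 0.075 for these 15. Vil1, the actin bundler villin, stood at 13.01 ± 0.067, and the intermicrovillar adhesion genes Cdhr2 and Cdhr5 at 13.02 ± 0.072 and 13.21 ± 0.038.

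Transporters of the products of digestion were likewise bright. Slc15a1, the peptide transporter PEPT1, stood at 13.12 ± 0.077, and Slc5a1, the sodium-glucose cotransporter SGLT1, at 12.72 ± 0.10. Of 13 peptide and amino acid transport genes 12 were in the top 10%. Slc2a2, the basolateral glucose transporter GLUT2, ran from 11.43 through 12 to 12.28, with replicate 1 lowest. Pck1, the entry enzyme of gluconeogenesis, had an SD of 0.67. Its level was 9.29 on replicate 1 and 8.93 on replicate 5, below all other arrays, which lay between 10.19 and 10.69. Without replicate 5 its SD was 0.49.

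Fat handling genes had a median signal percentile of 99. Apob, the scaffold of the chylomicron, stood at 13.52 ± 0.11, Fabp2, the intestinal fatty acid binding protein, at 13.56 ± 0.054, and Dgat1, which completes triglyceride synthesis, at 13.05 ± 0.042. Apoa1 was the steadiest of the list (13.38 ± 0.024). Fabp1, a second fatty acid binding protein, ran from 11.36 through 12.61 to 13.08. Replicate 1 lay 1.00 below the next lowest array, and the SD was 0.58 with that array and 0.28 without it. Replicate 1 was the lowest array for 9 and replicate 3 the highest for 12 of the 18 fat uptake genes. Replicate 3 was also highest for 10 of 20 respiratory chain genes and 10 of 25 xenobiotic genes, so this was not particular to fat uptake. Here and in the counts of this kind below, the share of all genes with the same highest or lowest array was not computed. Npc1l1, the transporter through which cholesterol enters the enterocyte, stood at 13.50 ± 0.034, and the sterol exporters Abcg5 and Abcg8 at 11.88 ± 0.10 and 11.51 ± 0.093. Among genes of mineral and vitamin uptake, Cubn, the cobalamin receptor cubilin, stood at 12.60 ± 0.20 and Rbp2, a retinol binding protein, at 12.83 ± 0.26. S100g, the calcium binding protein calbindin-D9k, had a mean of 7.34, below the background reference level.

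Of 25 genes of drug and xenobiotic metabolism 17 lay in the top 10%. Cyp4f14, a cytochrome P450 of fatty acid hydroxylation, stood at 13.11 ± 0.069, and the conjugating enzyme Ugt2b34 at 12.70 ± 0.054. 4 members had an SD above 0.5, where 0.688% of all genes did: the P450 genes Cyp3a25, Cyp2c29 and Cyp2c66 and the carboxylesterase Ces1f. Without replicate 1 the count was 3. Cyp3a25 was 8.20 on replicate 1 and 8.37 on replicate 2, with the other 5 arrays between 8.79 and 9.72. Cyp2c66 had an SD of 0.60 with replicate 1, its lowest array, and of 0.28 without it. Ces1f ran from 8.42 on replicate 5 through a median of 9.22 to 10.48 on replicate 1. The P450, carboxylesterase and UDP-glucuronosyltransferase genes have close relatives whose transcripts probe sets may share.

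Secretory lineages differed widely in signal. 8 of 16 goblet cell genes and 8 of 14 Paneth cell genes lay in the top 1%, whereas the tuft cell list had a median of 7.78, at signal percentile 50.7. Beside Muc2 and Zg16, the goblet cell genes Fcgbp and Clca1 stood at 13.48 ± 0.034 and 12.92 ± 0.16. The Paneth cell list had its 2 lowest array means on replicates 3 and 4 (11.69 and 11.82) and lay between 11.97 and 12.21 on the others. Replicate 3 was the lowest array for 10 of its 14 members, such as Mmp7, the protease that activates defensins (11.29, with 11.89 as the median and 12.07 as the highest value). It was also the lowest array for 13 of the 15 goblet cell genes above the filter. In bulk tissue of this kind, fewer cells of a type and less RNA per cell cannot be told apart.

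Hormone genes of enteroendocrine cells covered a wide range. Gip, the glucose-dependent insulinotropic peptide, was brightest at 11.17 ± 0.33, followed by Sst, somatostatin, at 10.75 ± 0.25. Nts, neurotensin, stood at 9.96 ± 0.35 and Cck, cholecystokinin, at 9.45 ± 0.21. 10 of 14 hormone genes exceeded the background reference, where 57.7% of all genes did. Gip and Nts ran opposite ways on replicate 1, which had the lowest value for Gip (10.57) and the highest for Nts (10.61). Chga, chromogranin A of hormone granules, stood at 10.28 ± 0.14. Tuft cell genes such as Dclk1 (7.96 ± 0.090) and Trpm5, a taste-pathway channel (8.72 ± 0.18), exceeded the background reference with little spread.

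Crypt genes were of middling to high signal, with a median SD of 0.099 against 0.111 for all genes above the filter. None of the 36 stem cell and cell cycle genes had an SD above 0.5, a count near the share of 0.688% of all genes. Olfm4, a marker of crypt base cells, stood at 12.57 ± 0.077, Mki67, a proliferation antigen, at 10.74 ± 0.053, and Pcna, the replication clamp, at 11.25 ± 0.079. Lgr5, the stem cell receptor for R-spondins, was the loosest, running from 8.90 through 9.33 to 9.70, with replicates 3, 4 and 7 lowest. The transcription factors of the intestinal epithelium had 13 of 22 members in the top 10%. Their median SD was 0.144, and none exceeded 0.5, again near the share of all genes. Hnf4g and Hnf4a, nuclear receptors that maintain enterocyte identity, stood at 12.77 ± 0.094 and 12.36 ± 0.082, and Vdr, the vitamin D receptor, at 11.73 ± 0.026. Nr5a2 itself ran from 10.06 on replicate 3 through a median of 10.36 to 10.60 on replicate 1. Its SD of 0.18 (95% interval 0.12 to 0.40) was above the median of all genes. Nr0b2, which encodes the small heterodimer partner and is a known LRH-1 target, had a low mean of 7.58 and a spread of 0.30.

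Immune genes were dimmer than those of the absorptive, secretory and crypt lists. Their 111 measured members had a median signal percentile of 56.7, and their median SD of 0.243 exceeded the 0.156, 0.157 and 0.099 of those classes. Of the 102 above the filter 16 (15.7%) had an SD above 0.5, where 0.688% of all genes did. That share, with replicate 1 included, was 9.70% for absorptive, 5.19% for secretory and 26.1% for regional genes. All lists were chosen with earlier results of these data known. The immune exceptions in signal were Ighm, the immunoglobulin mu chain, at 13.45 ± 0.29, Jchain, the joining chain of secreted antibody, at 12.58 ± 0.23, and the MHC class II gene H2-Ab1 at 12.55 ± 0.61. The mast cell and granulocyte list had 3 of 15 genes above the background reference, where 57.7% of all genes lay. Of the stromal lists, smooth muscle was brightest and steady. Acta2, smooth muscle actin, at 12.54 ± 0.019, was among the 12 steadiest genes of the upper part of the ranking, and Actg2, the enteric muscle actin, stood at 11.34 ± 0.087. The enteric neuron and glia list had a median of 7.48, close to background, with Snap25, a synaptic protein, at 8.68 ± 0.12 and Vip, the vasoactive intestinal peptide, at 8.68 ± 0.45.

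Of the genes that mark other organs, 9 of 19 pancreatic, 4 of 13 hepatocyte and 6 of 9 colon genes lay above the background reference, as 57.7% of all genes did. The pancreatic enzyme genes Cpa1, Amy2b and Cpb1 had means of 7.15, 4.30 and 5.39, all below the background reference. Clps, pancreatic colipase, and Pnliprp2, a pancreatic lipase-related gene, were bright at 12.26 ± 0.23 and 11.23 ± 0.30, and both were lowest on replicates 3 and 4. The other members of that list in the top 10% were Zg16, also a goblet cell gene, and Reg1. The colon genes in the top 10% were Muc13, Car4, a carbonic anhydrase, at 11.94 ± 0.20 and Slc26a3, a chloride-bicarbonate exchanger, at 11.69 ± 0.071. Of the stomach genes 3 of 12 exceeded the background reference, namely Ghrl, the hormone ghrelin, at 8.77 ± 0.22 and the proton pump subunits Atp4b and Atp4a at 7.66 and 7.44. The gastrokine Gkn1 stood at 7.21, and the colonic carbonic anhydrase Car1, the dimmest of the colon genes, at 5.87. The urea cycle gene Cps1 was the bright member of the hepatocyte list at 12.62 ± 0.043, while Ttr, transthyretin, stood at 8.59 ± 0.14. Odf1, known as a sperm tail gene, gave a bright signal of 12.72 ± 0.036.

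Between the 7 arrays, 1 per mouse, most genes varied little. Differences between animals, tissue pieces and array measurements cannot be told apart in these SDs, and the normalization behind them is not given. The median SD was 0.111, the middle part of the distribution lay between 0.0814 (25th percentile) and 0.151 (75th percentile), and 89.1% of genes had an SD below 0.2. The highest and lowest of the 7 arrays differed 1.24-fold for the median gene, and 322 genes had a range of more than 2-fold. Over all 22180 genes, those below the limit of 6.24 included, the median SD was 0.137 in the lowest 10% of signal and 0.0893 in the highest. Wide spread went the other way, with 0% of genes above an SD of 0.5 in the lowest 10% and 1.26% in the highest. An intercept-only limma fit gave a prior of 4.06 degrees of freedom, which describes how unevenly variance is spread over genes, around a prior SD of 0.107. The steadiest genes with a mean in the upper part of the ranking were Birc6, which encodes a large ubiquitin ligase, with an SD of 0.011, and Angel2, with 0.013. The interval for Birc6 ran from 0.007 to 0.024.

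Housekeeping genes were the steadiest class by median SD, at 0.078. None of 72 exceeded 0.5, a count near the share of 0.688% of all genes. Of the common reference genes, Pgk1, a glycolytic kinase, Eef1a1, a translation elongation factor, and B2m had SDs of 0.026, 0.027 and 0.031. Gapdh ran from 13.20 through 13.28 to 13.33 and Actb from 11.98 through 12.05 to 12.16. The loosest of these reference genes was Hprt, a purine salvage enzyme, with an SD of 0.13, which is above the median of all genes, although its signal of 10.06 was in the upper part of the ranking. Genes of the mitochondrial genome had a median SD of 0.046. Ribosomal protein genes had one of 0.0995, and none of 84 exceeded 0.5, again near the share of all genes.

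**Figure D2:**
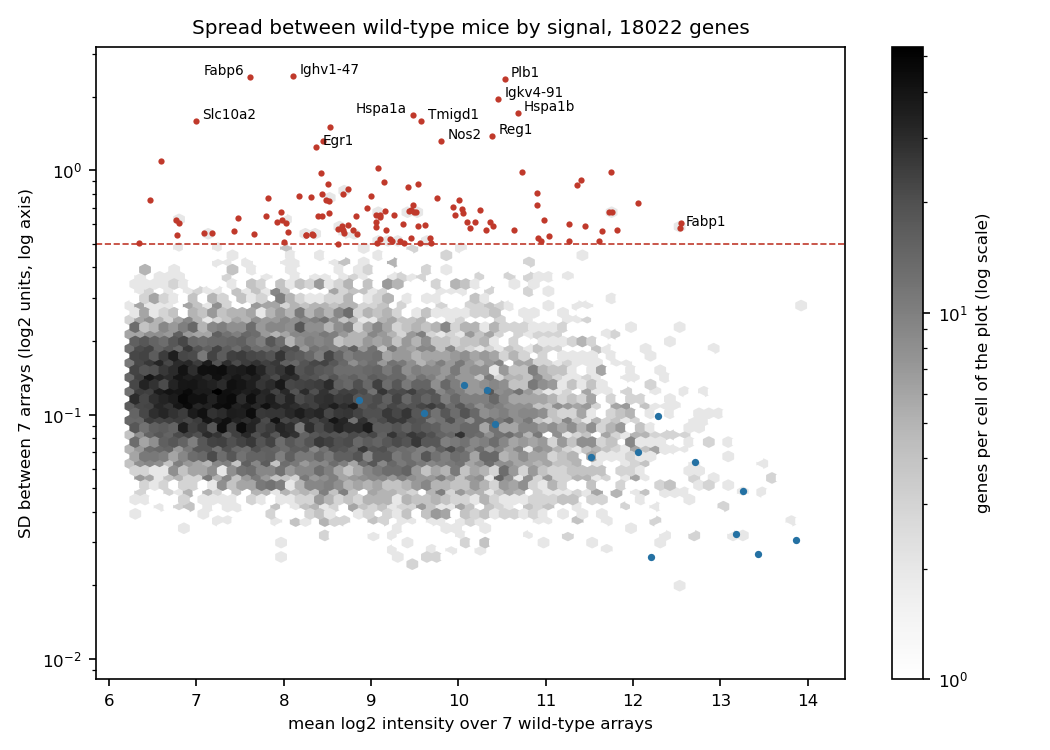
SD of log2 intensity between the 7 wild-type mice (y axis, log scale) against mean log2 intensity (x axis) for 18022 genes, with darker cells holding more genes, red points for the 124 genes above an SD of 0.5 (dashed line) and blue points for 14 common reference genes. The blue points lie between 0.026 and 0.133, and the red ones reach 2.43 for Ighv1-47.

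At the other end, 124 genes (0.688%) had an SD above 0.5 and 15 (0.0832%) an SD above 1. Just inside the limit of 0.5 lay Msmo1 and Tmem229b-ps, at 0.501 and 0.50, and just outside it Igkv4-72 and Mmp2, at 0.498 and 0.497, of which the last 3 are named for their place only. The number depends on single arrays. Replicate 1 was the farthest array from the median for 52 of the 124 genes, replicate 2 for 19 and replicate 5 for 3. Without replicate 1, 92 genes exceeded 0.5, of which 81 were among the 124, and without replicates 1 and 6 89 genes, of which 75 were. With each gene's farthest array left out, 54 of the 124 kept an SD above 0.5 and 70 did not. Of the 124, 48 were in one of the gene lists, and the paragraphs that follow take them by function.

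**Figure D3:**
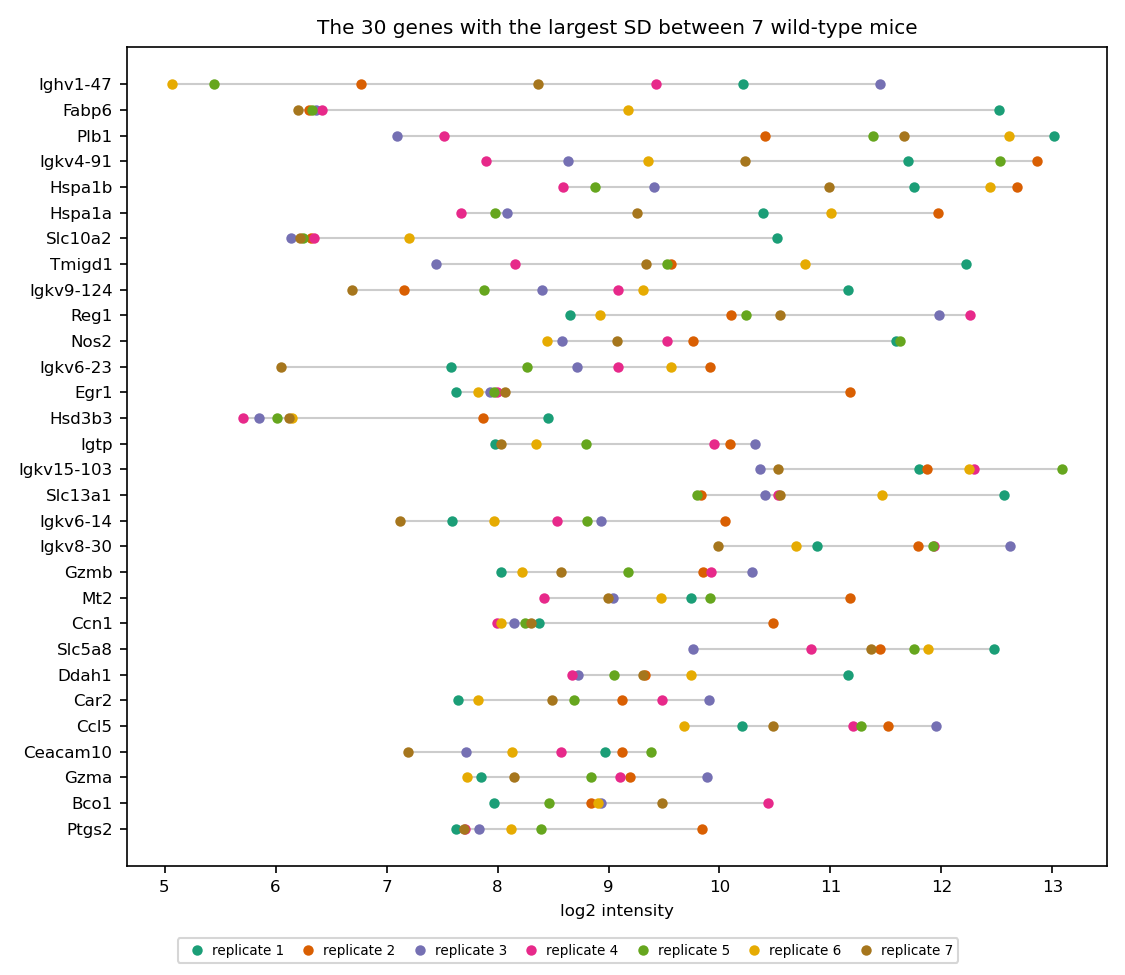
Log2 intensity on each of the 7 wild-type arrays (x axis, 1 coloured point per replicate) for the 30 genes with the largest SD (y axis, largest at the top), with a grey line from the lowest to the highest array. For Fabp6 and Slc10a2 replicate 1 lies apart, for Egr1, Ccn1 and Ptgs2 replicate 2, and for Plb1, Hspa1a and Hspa1b the arrays are strung along the range.

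Of the genes other than immunoglobulin segments, the distal small intestine gene Fabp6 had the largest SD. The 9 measured genes of the distal list had a median SD of 0.381, and 4 exceeded 0.5, where 0.688% of all genes did. Without replicate 1 the count was 2. Fabp6, the ileal bile acid binding protein, was 12.52 on replicate 1 and 9.18 on replicate 6, and lay between 6.20 and 6.42 on the other 5 arrays, below the background reference. Its SD was 2.41 (95% interval 1.55 to 5.31, which assumes normal values and so describes this gene poorly). Slc10a2, the ileal bile acid transporter ASBT, followed the same order, with 10.52 on replicate 1, 7.20 on replicate 6 and 6.14 to 6.34 on the rest. Slc51a, a subunit of the basolateral bile acid exporter, was 12.29 on replicate 1 against 11.17 to 11.51, and Pyy, a hormone of the distal gut, 9.26 against 7.67 to 8.58. Replicate 1 thus had the highest value for these 4 genes, and replicate 6 the second highest. Without replicate 1 the SDs of Fabp6, Slc10a2 and Pyy were 1.17, 0.39 and 0.39, in place of 2.41, 1.59 and 0.55. Fgf15, the ileal hormone that signals bile acid return to the liver, had another order on its brightest probe set. It lay between 8.35 and 8.63 on replicates 5, 6 and 7, and between 7.19 and 7.36, below the background reference, on replicates 1 to 4. A second, dimmer Fgf15 probe set, with a mean of 7.13 and an SD of 0.17, did not repeat this split and was highest on replicate 3, at 7.32.

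Further genes shared the order of replicates 1 and 6 high and replicates 3 and 4 low. Plb1, a brush-border phospholipase, ran from 7.09 on replicate 3 through a median of 11.38 to 13.02 on replicate 1, with 7.52 on replicate 4 and 12.61 on replicate 6. Tmigd1, an adhesion protein of the brush border, was 7.44 on replicate 3, 8.16 on replicate 4, 10.77 on replicate 6 and 12.22 on replicate 1. Slc5a8, a carrier of short-chain fatty acids, ran from 9.76 on replicate 3 through a median of 11.44 to 12.47 on replicate 1. Its SD was 0.87, and 0.55 without replicate 3. The sulfate transporter gene Slc13a1 was also highest on replicates 1 and 6, at 12.56 and 11.46, but its lowest values were those of replicates 5 and 2 (9.80 and 9.83). Its SD was 0.98, and 0.61 without replicate 1. The order opposite to that of Plb1 was seen for Onecut2, a transcription factor of the proximal intestine, with 9.50 and 9.34 on replicates 3 and 4, 7.80 and 7.43 on replicates 6 and 1, and a median of 8.50. Car2, a carbonic anhydrase, likewise ran from 7.65 on replicate 1 to 9.91 on replicate 3. Gata4, the transcription factor that specifies jejunal over ileal enterocytes, had a narrower range but its highest values on replicates 3 and 4 (10.37 and 10.32) and its lowest on replicates 1 and 6 (9.78 and 9.87). The duodenal and proximal list mean was highest on replicates 4 and 3 (9.17 and 9.11) and lowest on replicate 1 (8.71). Which length of the jejunum each sample came from is not given, and its part in these differences was not tested.

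Reg1 and genes of epithelial defence also varied. Reg1, a secreted lectin of the proximal intestine and pancreas, was 11.98 and 12.26 on replicates 3 and 4, 8.65 and 8.92 on replicates 1 and 6, and 10.11 to 10.55 on the remaining arrays. The related lectin genes Reg3b and Reg3g, which act against bacteria, were bright and narrow at 13.33 ± 0.24 and 13.44 ± 0.18. Nos2, the inducible nitric oxide synthase, was 11.59 on replicate 1 and 11.62 on replicate 5, above the 8.45 to 9.76 of the others. Duox2, which makes hydrogen peroxide at the epithelial surface, had the same arrays on top, with 11.17 and 10.74 against 9.16 to 10.12.

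Heat shock chaperone genes set replicates 2, 6, 1 and 7 above replicates 3, 4 and 5. Hspa1b, which encodes the inducible chaperone HSP70, was 12.68 on replicate 2, 12.44 on replicate 6, 11.75 on replicate 1, 10.99 on replicate 7 and 8.59 to 9.41 on replicates 3 to 5. Its SD was 1.71 (95% interval 1.10 to 3.77). Its near-identical neighbour Hspa1a followed the same order from 7.67 through a median of 9.25 to 11.97, and the probes may not tell these genes apart. Hsph1, the co-chaperone HSP110, ran from 8.82 through 9.90 to 10.77, lowest on replicates 4, 5 and 3 and highest on replicate 6. Dnajb1, an HSP40 co-chaperone, was 10.37 on replicate 2 and lay between 9.10 and 9.63 elsewhere. Hspa8, the constitutive relative, had a narrower range, at 13.17 ± 0.13. Of the 18 listed heat shock genes 3 had an SD above 0.5, where 0.688% of all genes did. Replicate 4 was the lowest array for 9 of the 18. It was also the lowest for 10 of 16 genes of the unfolded protein response.

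The regions before the start sites of these 3 genes are shown because their signals moved together, with matches to the 8-letter units GAANNTTC and TTCNNGAA of the heat shock element in capitals. They are the 250 bases before the RefSeq start site in build GRCm38.p6, 5′ to 3′ on the minus strand, which is the strand of all 3 genes: Hspa1a at chr17:34972157-34972406, Hspa1b at chr17:34959239-34959488 and Hsph1 at chr5:149636337-149636586.
Hspa1a: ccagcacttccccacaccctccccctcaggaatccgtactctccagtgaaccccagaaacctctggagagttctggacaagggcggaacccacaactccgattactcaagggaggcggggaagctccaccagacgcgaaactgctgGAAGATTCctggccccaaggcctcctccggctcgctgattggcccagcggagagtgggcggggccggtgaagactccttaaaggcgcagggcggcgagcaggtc
Hspa1b: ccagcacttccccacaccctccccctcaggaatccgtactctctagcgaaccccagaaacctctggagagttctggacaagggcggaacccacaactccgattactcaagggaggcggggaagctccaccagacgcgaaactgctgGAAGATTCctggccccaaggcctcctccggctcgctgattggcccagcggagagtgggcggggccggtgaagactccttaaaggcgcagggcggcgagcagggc
Hsph1: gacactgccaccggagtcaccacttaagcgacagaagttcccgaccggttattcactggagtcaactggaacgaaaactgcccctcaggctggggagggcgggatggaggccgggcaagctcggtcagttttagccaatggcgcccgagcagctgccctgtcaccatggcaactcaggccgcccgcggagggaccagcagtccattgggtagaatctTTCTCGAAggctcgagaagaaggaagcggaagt
The Hspa1a and Hspa1b sequences were identical at 247 of 250 positions (98.8%), and each held 1 match, GAAGATTC, beginning 104 bases before the start. Hsph1 held 1 match, TTCTCGAA, beginning 33 bases before the start, and a 13-letter match, TTCTGGAAAGTTC, just after the start. Both units read the same on either strand. One or the other unit occurred in 15.1% of the 32851 mouse start-site windows of 300 bases, which run from 250 bases before to 50 after a start, and the 13-letter form, in which 3 triplets alternate between TTC and GAA with 2 bases between neighbours, in 0.603%. Of the listed heat shock genes 16 had a window, 12 of them with at least 1 unit in some window and 4 with a 13-letter form. Some genes had several windows, so these counts of genes are not on the scale of the shares of windows. Windows of Hspd1 and Hspe1, the latter named for its place only, overlap, and the same 13-letter matches count for both genes. These matches describe the letters and are not a measure of factor binding.

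Immediate early genes, which respond within minutes to stimulation of a cell, set replicate 2 apart. Egr1, a zinc finger transcription factor, was 11.18 on replicate 2 and 7.63 to 8.06 on the other 6 arrays. Its SD was 1.25 over 7 arrays and 0.16 without replicate 2. Ccn1, a secreted matrix protein, was 10.48 there against 8.0 to 8.37, and Fos, a subunit of AP-1, 11.53 against 9.72 to 10.28. Ptgs2, the inducible cyclooxygenase, which is not in the list of immediate early genes, was 9.84 against 7.63 to 8.39. The SDs of Ccn1, Fos and Ptgs2 were 0.88, 0.57 and 0.78, and 0.15, 0.20 and 0.30 without replicate 2. Replicate 2 was the highest array for 16 of 21 listed genes, against 10 of 19 cell cycle genes, whose list mean was also highest there. Of the 21 immediate early genes, 3 had an SD above 0.5 with replicate 2, where 0.688% of all genes did, and 0 without it. The regulators Klf6 and Myc of the same list were steady (12.14 ± 0.073 and 9.63 ± 0.078). Mt2, a metallothionein that binds zinc, was also highest on replicate 2, at 11.18, and ran down to 8.42 on replicate 4, with an SD of 0.88 that was 0.55 without replicate 2.

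Genes of cholesterol synthesis were highest on replicate 1 without exception. All 17 measured members had their highest value there, and the list mean was 10.50 on that array against 9.40 to 9.73 on the other 6. Sqle, squalene epoxidase, was 10.98 against 8.93 to 9.45. Fdft1, squalene synthase, was 11.70 against 9.96 to 10.42, and Cyp51, a sterol demethylase, 10.50 against 8.55 to 8.97. Insig1, the sterol sensor partner, was less separate, at 11.47 against 10.12 to 11.01. Over all 7 arrays 4 members had an SD above 0.5, where 0.688% of all genes did, and 0 members did without replicate 1. The SDs of Sqle, Fdft1, Cyp51 and Msmo1, a sterol oxidase, were 0.68, 0.61, 0.65 and 0.50 with it and 0.18, 0.18, 0.15 and 0.10 without it. Srebf2, which encodes the transcription factor SREBP-2 that drives these genes, ran from 10.19 through 10.22 to 10.84, again highest on replicate 1. The same array was the highest for 8 of 13 fatty acid synthesis genes, among them Scd1, a desaturase, with 11.98 on replicate 1, a median of 10.92 and 9.90 on replicate 6, whose SD was 0.62 and 0.48 without replicate 1, and Me1, malic enzyme, with 9.22 against 7.90 to 8.52. Replicate 1 is also the array with the highest Fabp6 signal, whose part in these sterol values was not tested.

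Of 13 genes of fatty acid oxidation and ketogenesis above the signal limit, 1 had an SD above 0.5, where 0.688% of all genes did. That gene was Pdk4, a kinase that limits glucose oxidation, with an SD of 0.68. It ran from 8.14 on replicate 1 through 9.32 to 9.99 on replicate 7, with replicate 5 second lowest. Angptl4, an inhibitor of lipoprotein lipase, was lowest on replicate 5 (8.43) and highest on replicate 6 (9.82). Cpt1a and Acadm of fatty acid oxidation were steady at 11.26 ± 0.066 and 11.57 ± 0.044. The circadian clock genes had a median SD of 0.173 and no member above 0.5, a count near the share of 0.688% of all genes. Arntl, which encodes the clock protein BMAL1, stood at 10.30 ± 0.18 in these mice, which were all killed at 7 am.

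**Figure D4:**
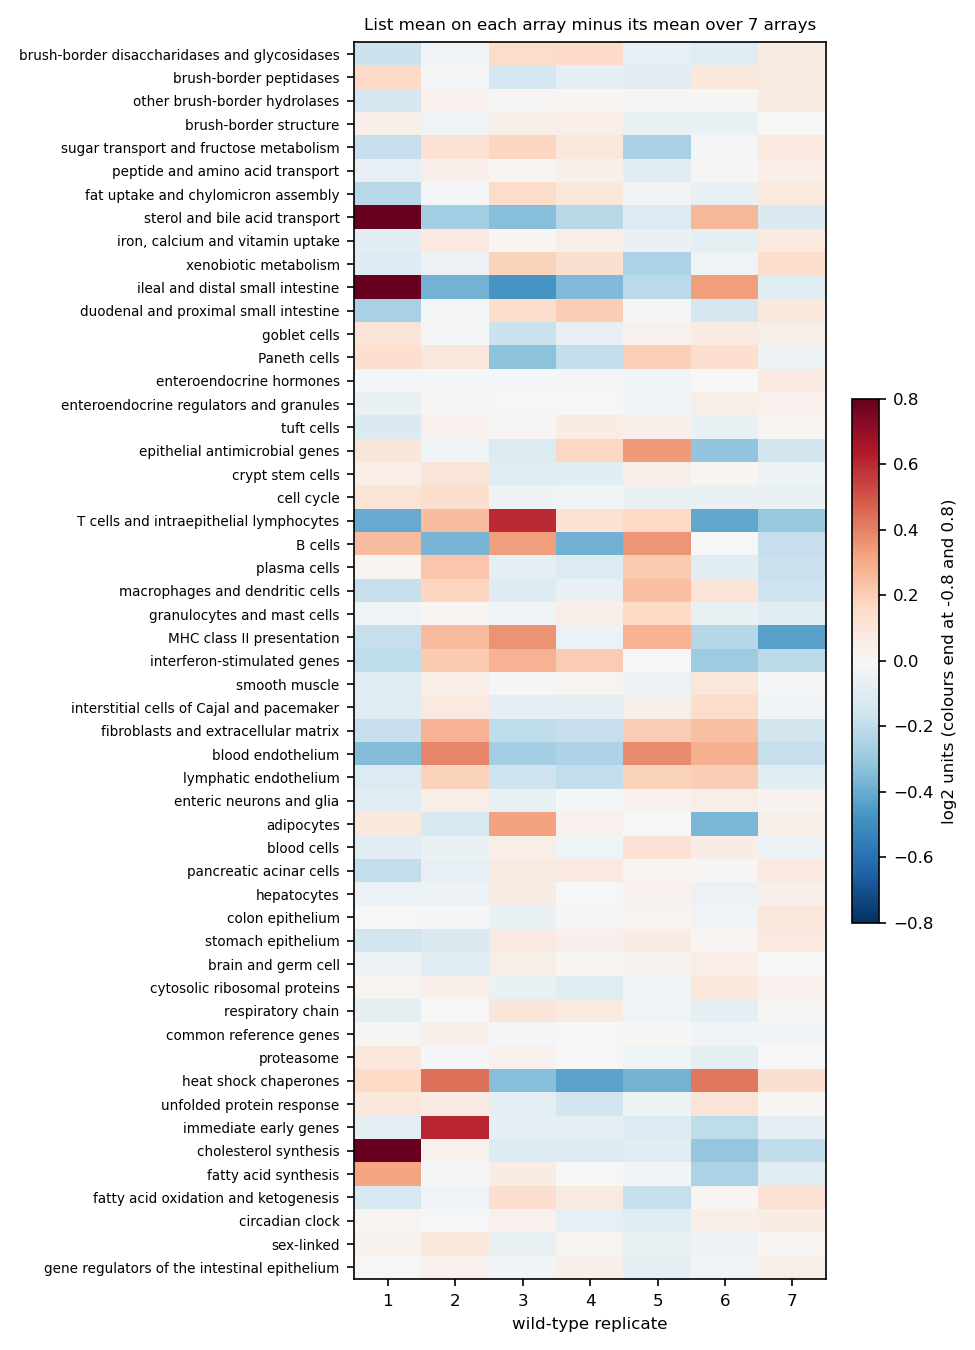
Mean log2 intensity of the members of each of 53 gene lists (y axis) on each wild-type array (x axis) minus the list's mean over the 7 arrays, red for above and blue for below, with colours ending at 0.8. The darkest cells are the ileal, sterol transport and cholesterol synthesis lists on replicate 1, the immediate early list on replicate 2 and the T cell list on replicate 3.

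Lymphocyte genes varied between mice as a group. The list of T cells and intraepithelial lymphocytes had an array mean of 8.89 on replicate 3 and 7.87, 7.89 and 7.99 on replicates 6, 1 and 7. Replicate 3 was the highest array for 13 of 17 members. Ccl5, a chemokine of cytotoxic T cells, ran from 9.68 through 11.21 to 11.95, and Gzmb, the protease granzyme B, from 8.03 through 9.17 to 10.29. Cd3g and Cd3e, chains of the T cell receptor complex, had SDs of 0.70 and 0.61, with replicate 3 highest and replicate 6 lowest for both. Cd3d, another chain, had a dimmer probe set with 7.42 ± 0.14, near background, and also had its highest value on replicate 3. B cell genes had another order, with 8.51, 8.49 and 8.41 as list means of replicates 5, 3 and 1 and 7.77 and 7.79 on replicates 4 and 2. Ms4a1, the B cell surface protein CD20, ran from 6.78 to 8.20 around 7.35, and Cr2, a complement receptor of follicular B cells, from 5.88 to 7.48 around 7.02. Both lay at or below the background reference on several arrays, and without replicate 3 the SD of Ms4a1 was 0.50 in place of 0.57.

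Genes of antigen presentation and interferon response shared the T cell order in part. H2-Aa, an MHC class II chain, was 12.45, 12.36 and 12.20 on replicates 2, 3 and 5 and 11.22 and 10.65 on replicates 6 and 7, with a median of 11.88. H2-DMa, which helps load class II molecules, ran from 9.34 through 10.50 to 11.06 with the same arrays at its ends. Ctss, the protease cathepsin S of the same pathway, was steady at 10.66 ± 0.044. Igtp, an interferon-induced GTPase, was 10.32, 10.09 and 9.95 on replicates 3, 2 and 4, its highest arrays, and 7.98 to 8.80 on the others. Usp18, which restrains interferon signalling, ran from 8.35 through 9.40 to 9.85, with an SD of 0.57 that was 0.48 without replicate 1, whereas Ifit3, also interferon-induced, was steady at 8.69 ± 0.086.

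Immunoglobulin variable segments had the largest spread of any family examined. Of 17 measured segments 10 had an SD above 0.5, where 0.688% of all genes did, and the median SD of the 17 was 0.72. Ighv1-47, a heavy chain segment, ran from 5.06 through 8.37 to 11.45, with replicate 3 highest and replicate 6 lowest. Its SD of 2.43 (95% interval 1.57 to 5.36) was the largest of all genes. Igkv4-91, a kappa light chain segment, ran from 7.89 on replicate 4 through 10.23 to 12.87 on replicate 2, and Igkv9-124 from 6.69 on replicate 7 through 8.40 to 11.16 on replicate 1. The highest array thus differed between the segments. Ighm, the constant gene of IgM, had an SD of 0.29, and Jchain, which links antibody units, one of 0.23. The constant gene Ighg3 and the kappa joining segment Igkj1, singled out after their values were seen, exceeded 0.5, with SDs of 0.65 and 0.57. A second Ighg3 probe set, with a mean of 7.985, had an SD of 1.59. It ran from 6.39 on replicate 7 to 10.55 on replicate 5 and had a correlation of 0.48 with the first. Variable segments are near copies of each other, and a probe set may read several.

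Vessel, fibroblast and macrophage genes had the same 3 arrays on top. The blood endothelium list had means of 8.77, 8.75 and 8.66 on replicates 2, 5 and 6 and 8.03 to 8.19 on the other 4. Emcn, the endothelial sialoprotein endomucin and a member of that list, was 9.49, 9.39 and 9.23 on these arrays and 8.12 to 8.36 on the others. Plvap, which forms the diaphragms of capillary pores, ran from 9.23 through 9.35 to 10.38 with the same 3 arrays highest, and its SD was 0.51 and, without replicate 2, 0.44. The fibroblast and matrix list had means of 10.10, 10.02 and 10.06 on the same arrays against 9.62 to 9.68, with Bgn, the matrix proteoglycan biglycan, at 11.87, 11.88 and 11.82 against 10.97 to 11.15. Csf1r, the macrophage growth factor receptor, was 9.56, 9.65 and 9.49 against 8.78 to 9.19. The muscle genes moved less, with list means of 10.28 to 10.46. Lgr5 was likewise highest on replicates 5, 2 and 6 (9.70, 9.67 and 9.64), whereas Olfm4 differed by at most 0.21 between any pair of arrays. Adipocyte genes had another order: Car3, a carbonic anhydrase of fat and muscle, was 11.34 on replicate 3 and 9.87 on replicate 6, and Fabp4, the adipocyte fatty acid binding protein, 10.60 on replicate 1 and 9.69 on replicate 6. How much of each tissue layer a sample held is not given, and its part in these values was not tested.

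The spread of the same probe sets in the 7 K289R arrays, which played no part in choosing the genes, gives a second view of how variable they are. Each group was centred on its own mean, so this compares spreads and not levels. Of the 124 genes above 0.5 between wild-type mice, 57 (46.0% of them) also exceeded 0.5 between K289R mice, where 100 genes (0.555%) did, so that the shared genes were 57% of the second list. All 124 were above the median SD of the K289R arrays (0.133), and 113 were above its 95th percentile. Fabp6 and Plb1 were widely spread in both groups, with K289R SDs of 1.97 and 1.91, as was Reg1 with 1.43. 3 of the 124 had an SD below 0.2 there, namely Hspa1a (0.14 against 1.68 in wild type), Ccn1 (0.14 against 0.88) and Msmo1 (0.19 against 0.50), and Egr1 was close to them (0.21 against 1.25). Across all 18022 genes the SDs of the groups had a Spearman rho of 0.421, a description across genes that share probe sets and signal level. None of the 18 heat shock, 21 immediate early or 17 cholesterol synthesis genes exceeded 0.5 between K289R mice, a count near the share of 0.555% of all genes. Of 17 T cell genes 7 exceeded it, and of 11 MHC class II genes 4, the same counts as between wild-type mice. Whether the spread differs between the genotypes was not tested.

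**Figure D5:**
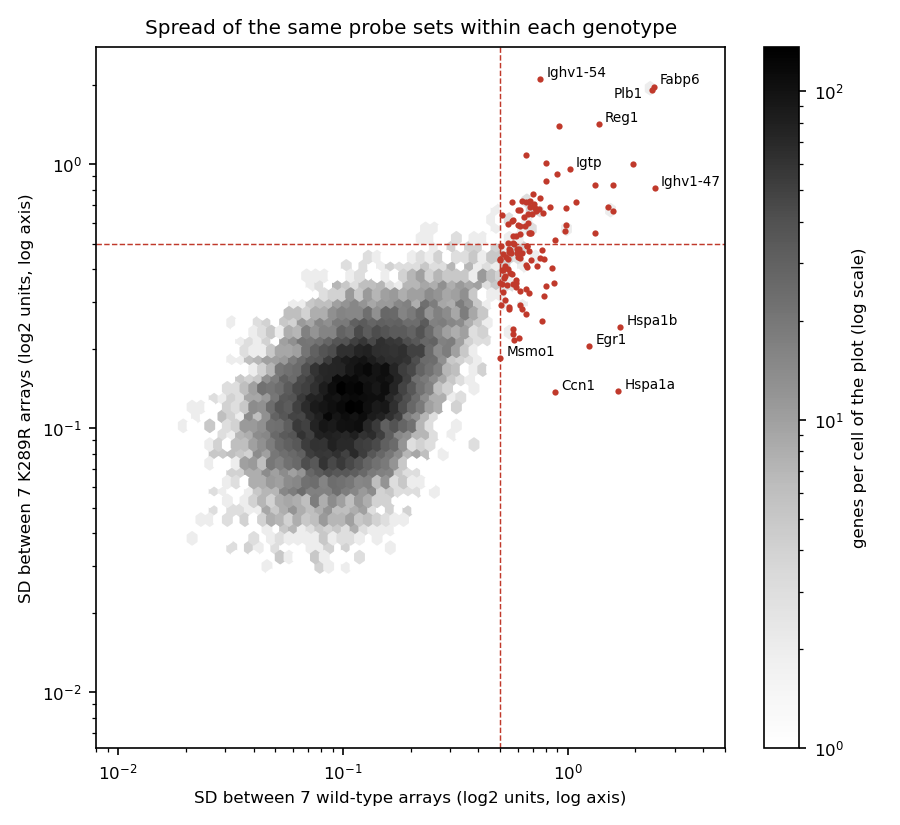
SD between the 7 K289R arrays (y axis, log scale) against SD between the 7 wild-type arrays (x axis, log scale) for the same 18022 genes, with darker cells holding more genes, red points for the 124 genes above 0.5 in wild type and dashed lines at 0.5. Fabp6, Plb1 and Reg1 lie at the upper right, while Hspa1a, Hspa1b, Egr1 and Ccn1 lie below the horizontal line at K289R SDs of 0.14 to 0.24.

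A second probe set of the same gene, read from the same RNA on the same array, was available for 851 genes. It was the second brightest, so it was never brighter than the first and often dimmer. For some genes both probe sets gave identical values, with a correlation of 1, which adds no second reading. Its correlation with the first over the 7 arrays had a median of 0.312 across all these genes. The median was 0.272 for the 373 genes with an SD below 0.1 and 0.736 for the 23 genes with an SD of 0.3 to 0.5. Above 0.5 there were 6 genes, with a median of 0.5. The differences between mice in genes with low SDs were thus repeated less by a second probe set than those in genes with SDs of 0.3 to 0.5, a description across genes with no test.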

How the data were processed

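RNA was isolated with Trizol, per the labels' protocols, and amplification by a whole-transcript kit started from 100 ng, with 5500 ng of cDNA then labelled and hybridised. The authors deposited 1 intensity per probe set and array on a linear scale, for 41345 probe sets. The submitters' processing notes name Affymetrix Expression Console, and neither its version nor the summarisation and normalization are given there. No further normalization was applied. The deposited intensities were transformed to log2, and values of 1 array per mouse were used for the 7 LRH-1 WT samples, with the group and replicate number taken from the titles.

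Gene names came from the platform annotation, which can be old. It gave 1 symbol for 23521 probe sets and several for 1814, which were not used, and 16010 probe sets were unnamed here. Symbols were matched by Entrez identifier to the RefSeq table of GRCm38.p6 for 23328 probe sets. No source used here gives the genome build of the array annotation, and coordinates are printed only for RefSeq start sites. A gene took the probe set with the highest mean over the 7 arrays, and SDs were summarised over genes with a mean of at least the 25th percentile of all probe sets. No group was compared and no p-value was computed. The SD has n - 1 in its denominator and a chi-square interval. Variance across genes was described with an intercept-only fit in limma 3.58.1 (R 4.3.3), and the SD steps were tested on simulated data with known SDs. Tables were made with Python 3.11.15, pandas 2.3.3, numpy 2.4.6 and scipy 1.17.1.

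The members, and the 53 gene lists with 822 distinct genes, of which 731 were measured and the rest are not analysed here, were chosen with earlier results of these data known. Genes named are Nr5a2, the 25 brightest, the 40 with the highest and the 12 with the lowest SD, of each list up to 5 with the highest mean, 4 with the highest and 2 with the lowest SD, and all members of the sex-linked, regional, pancreatic, blood, colon, stomach and reference lists. Names outside that rule are said to be so. Alternatives were quantile normalization, a shift to 1 median, other choices of probe set, other filters, the median absolute deviation, other thresholds, all probe sets as the unit and leaving out each array. Leaving out replicates 1 and 6 together was added after seeing the data. The labels give no scan day, cage of origin or litter, so no batch was used.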

Additional observations from a re-analysis of the deposited data

Results flagged for a closer look

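For 22 of 169 genes named here by the naming rule and 4 of 53 list means, 1 of the 7 arrays lay so far from the rest that its gap to the nearest other array exceeded Dixon's 95% critical value. Chance passes that value for about 1 in 20 groups, but the named genes include those with the widest spread and share their arrays, so these counts cannot be read against that share. Replicate 1 was the outlying array in 17 cases, replicate 2 in 8 and replicate 7 in 1, and the causes were not tested.

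Replicate 1 lay high for the cholesterol synthesis genes Cyp51 at 10.50 (nearest other array 8.97), Fdft1 at 11.70 (10.42), Msmo1 at 10.49 (9.32), Sqle at 10.98 (9.45) and Srebf2 at 10.84 (10.36), and for the mean of that list at 10.50 (9.73). It lay high for the bile acid transport genes Slc10a2 at 10.52 (7.20) and Slc51a at 12.29 (11.51), and for Ddah1 at 11.16 (9.74), Suox at 11.67 (9.92), Trpm6 at 9.45 (8.0) and Ctss at 10.76 (10.66). It lay low for the enterocyte genes Apoa4 at 13.62 (13.93), Fabp1 at 11.36 (12.36) and Lct at 12.45 (13.08), for the hormone gene Sst at 10.23 (10.67) and for the mean of the other brush-border hydrolases at 10.86 (11).

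Replicate 2 lay high for the immediate early genes Egr1 at 11.18 (8.06), Ccn1 at 10.48 (8.37) and Fos at 11.53 (10.28), for the mean of that list at 10.15 (9.47), for Ptgs2, which is not in the list, at 9.84 (8.39) and for the co-chaperone gene Dnajb1 at 10.37 (9.63). It lay low for the stomach genes Atp4a at 7.22 (7.47) and Gkn1 at 6.86 (7.17), both near the background reference. Replicate 7 lay high for the mean of the enteroendocrine hormone genes at 9.31 (9.24).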

How the results depend on the processing

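The median SD of 0.111 lay between 0.103 and 0.114 when each replicate was left out in turn, and was 0.106 after quantile normalization. The number of genes with SD above 0.5 lay between 92 (without replicate 1) and 139 (without replicate 5), and that above 1 between 13 and 18. Without replicates 1 and 6, chosen after seeing the data, these values were 0.104, 89 and 13. With the median absolute deviation in place of the SD the median was 0.0938, 116 genes exceeded 0.5, of which 65 were among the 124, and 24 exceeded 1. All probe sets in place of genes gave 454 above 0.5, and a limit of 0.4 gave 232. Quantile normalization left 121 of the 124 genes above 0.5. The array with the highest list mean was the same in 43 of 53 lists after quantile normalization and in 49 when all probe sets of a gene were averaged, which moved 11 list means by more than their SD between arrays. No paired analysis was possible because no groups are compared. Limits are the number of arrays, the unknown normalization, and probes whose signal cannot be set against that of other probes.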

Other observations

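Further genes had a wide spread between the wild-type mice, and the first 5 given here are in none of the gene lists. On replicate 1, Suox, which encodes sulfite oxidase, was 11.67 against 9.49 to 9.92 on the other 6 arrays. Trpm6, a magnesium channel, was 9.45 there against 7.17 to 8.0, and Ddah1, an enzyme of methylarginine breakdown, 11.16 against 8.67 to 9.74. Without replicate 1 their SDs were 0.18, 0.30 and 0.41, in place of 0.75, 0.77 and 0.85. Adcy8, an adenylate cyclase, ran from 7.16 on replicate 3 through a median of 8.28 to 9.44 on replicate 1. Hsd3b3, a steroid dehydrogenase, was 8.45 on replicate 1 and 7.87 on replicate 2 and lay between 5.71 and 6.15 on the others, below the background reference.

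Slc46a1, a folate transporter gene of the list of mineral and vitamin uptake, followed Onecut2 in being highest on replicates 3 and 4, at 12.21 and 12.14, with 10.58 on replicate 1 and a median of 11.66. Without replicate 1 its SD was 0.34 in place of 0.56. Ces2g, a carboxylesterase gene, was 10.52 and 10.20 on replicates 3 and 4 and 8.59 on replicate 1. Bco1 of the same uptake list, which splits beta-carotene, was 10.44 on replicate 4 alone, with 7.97 on replicate 1 and a median of 8.91.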
